A study of Mus musculus with 6 samples.

Results

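The cathepsins and legumain are the peptidases that break down protein in lysosomes and late endosomes. The group described here is 10 genes, Ctsa, Ctsb, Ctsc, Ctsd, Ctsh, Ctsk, Ctsl, Ctss, Ctsz and Lgmn, of the 23394 genes in the data. They were taken by name, and each gene is represented by its Ensembl transcript with the highest mean over all libraries. The cells came from livers of male C57BL/6 mice aged 3 months, kept on normal chow and injected intraperitoneally with carbon tetrachloride (CCl4), a hepatotoxin that leads to liver fibrosis. Liver cells carrying F4/80, a surface antigen of mouse macrophages, were collected with magnetic beads, and their polyadenylated RNA was sequenced. The wild-type (WT) group had 3 libraries and the knockout (KO) group had 3, and both groups received CCl4. The labels name neither the gene that was knocked out nor the cells it was removed from, and no untreated group was analysed here. Whether the libraries of a group are different mice is not stated, and the p-values then cover the spread between samples alone, which may be technical.

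Most cathepsins are made as inactive precursors, carried to acidic compartments by mannose 6-phosphate receptors, and activated there by cleavage. Cathepsins B, C, H, K, L, S and Z are cysteine peptidases of the papain family, cathepsin D is an aspartic peptidase, cathepsin A is a serine carboxypeptidase, and legumain is a cysteine peptidase that cuts after asparagine. Macrophages are rich in these enzymes, which digest ingested cells and matrix, process antigens for MHC class II and can be secreted into injured tissue. Cystatins and stefins are their protein inhibitors.

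All 6 libraries carried macrophage transcripts, together with RNA of other liver cells. With 1 transcript kept per gene the libraries held 10790842 to 22157238 reads, and mitochondrially encoded transcripts took 6.19% of the reads in WT replicate 3 and 27.5% in WT replicate 2. None of 15 pan-macrophage markers was at 0 in all libraries, and their summed level was 168940 to 260980 normalised counts in WT and 81407 to 95083 in KO libraries. Here 1 marker, the lysozyme gene Lyz2, fell, from 89491 ± 23938 to 1335 ± 720, and none rose. The median log2 change of the 15 was -0.42, and without Lyz2 the other 14 summed to 105191 to 149892 in WT and 80012 to 94496 in KO libraries. Adgre1, which encodes F4/80, had means of 6208 ± 1613 for WT and 5254 ± 1233 for KO. Markers of several other liver cells were higher in KO. The summed level of 10 hepatocyte markers was 23667 to 75133 in WT and 91222 to 166240 in KO libraries, and 6 rose. The 10 endothelial markers summed to 26362 to 49614 and 55339 to 107180, and 5 rose. The 10 stellate cell and fibroblast markers summed to 18195 to 24238 and 28622 to 51721, and 1, Col1a1, rose. The 5 erythroid markers summed to 1727 to 24927 and 23674 to 201390 without a call, and the 5 cholangiocyte markers to 3034 to 8179 and 14880 to 30175, where 1, Spp1, rose. The B cell, T and NK cell and dendritic cell lists had no call, and their median log2 changes were 0.05, 0.16 and -0.37. No marker of these lists was at 0 in all libraries. In such bulk samples, fewer cells of a type and less RNA per cell cannot be told apart.

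Sequences near the start of 3 members are shown because Ctsl and Ctsc were the members whose WT and KO values did not overlap, and Ctsd had the highest level per length. All are read 5′ to 3′ on the gene's strand in GRCm38.p6, with starts from RefSeq. Capitals mark CACGTG, the core of the element bound by TFEB and related factors of lysosomal genes. For Ctsd and Ctsl, 30 bases are given around each match in the 250 bases before the RefSeq start, and for Ctsc all 250 bases, which hold no match.
Ctsd, minus strand, chr7:142388048-142388077: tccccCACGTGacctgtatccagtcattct
Ctsd, minus strand, chr7:142387908-142387937: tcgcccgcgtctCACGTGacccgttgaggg
Ctsl, minus strand, chr13:64370739-64370768: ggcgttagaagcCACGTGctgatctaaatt
Ctsc, plus strand, chr7:88277835-88278084: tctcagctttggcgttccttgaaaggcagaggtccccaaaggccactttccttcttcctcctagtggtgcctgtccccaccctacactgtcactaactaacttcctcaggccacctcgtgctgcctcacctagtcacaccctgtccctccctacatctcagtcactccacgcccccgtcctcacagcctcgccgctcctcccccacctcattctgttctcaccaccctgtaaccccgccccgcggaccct
The Ctsd matches began 245 and 98 bases before the RefSeq start. That start lies 211 bases inside the transcript measured here, so the first match lies 34 bases before this transcript and the second within it. The Ctsl match began 236 bases before a RefSeq start that lies 214 bases upstream of the transcript measured here. For Ctsc both starts were the same base. RefSeq windows of 300 bases, 250 before the start and 50 after, were found for 8 of the 10 members, in 10 windows. CACGTG lay in 4 of these windows, those of Ctsd, Ctsl, 1 of 2 for Ctsa and 1 of 2 for Lgmn, against 7.15% of all 32851 windows. The Ctsa and Lgmn windows with a match have starts 872 and 721 bases inside the transcripts measured here. Their other windows, with starts 29 bases upstream for Ctsa and 85 bases inside for Lgmn, hold no match. TCACGTG, which contains it, lay in 3 of these windows and in 3.77% of all. GAGGAAG, the core of sites for the myeloid factor PU.1, lay on either strand in the windows of Ctsc, Ctsk and Ctss, against 13.6% of all windows. GGGCGG lay in 5 of the 10 windows and in 35.7% of all, and TATAAA in 2 and in 13.6%. A match describes letters only.

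In both genotypes Ctsd, Ctss and Ctsb supplied most of the group's transcripts and Ctsk the fewest. Levels of different genes were compared as normalised counts per kilobase of the kept transcript. On this scale Ctsd stood at 15928 ± 4658 in WT and 22169 ± 9291 in KO libraries (mean ± SD over 3 libraries per genotype, as for every mean here). Ctss stood at 15533 ± 3711 and 14416 ± 2720, and Ctsb at 10828 ± 3530 and 9607 ± 1919. In WT, Ctsz, Lgmn, Ctsc, Ctsl and Ctsa followed at 5054 ± 1696, 3841 ± 1497, 3270 ± 1284, 3042 ± 954 and 2501 ± 469 per kilobase, and these neighbours in the order lay within their spread. Ctsh was at 1634 ± 243 and Ctsk at 108 ± 70.5 per kilobase in WT. In KO libraries Ctsl, at 5489 ± 1393 per kilobase, ranked 4 instead of 7, and Ctsc, at 1648 ± 77.1, ranked 8 instead of 6. These levels and ranks depend on the length of the kept transcript. The kept Ctsh-203 has 2743 bases, and Ctsh-201, with nearly the same counts, has 1617. Likewise the kept Ctsa-201 has 3646 bases and Ctsa-202 has 2534. With the shorter transcripts Ctsh and Ctsa would stand higher per kilobase, and the order below Ctsb could differ.

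The design asks whether these transcripts differ between KO and WT cells of CCl4-injured liver. No member passed limma's test, with p-values adjusted over all 15619 genes tested, by the Benjamini-Hochberg method, and calls at an adjusted p under 0.05. All 10 members were among the genes tested, and 2.44% of all tested genes were called, 2.09% higher and 0.352% lower in KO. Before adjustment 3 members, Ctsc, Ctsl and Ctsk, had a p under 0.05, as did 18% of all genes. edgeR's quasi-likelihood test on the recovered reads called 0 members, where it called 1.81% of all genes. Before adjustment 2 members had an edgeR p under 0.05, as did 2840 of the 15619 genes tested. DESeq2 called 1 member, Ctsc, and 9.03% of all genes. The log2 change, KO minus WT on the scale of log2(value + 1), was above 0 for 4 members and below 0 for 6, with a median of -0.11, where the median over all tested genes was 0.05. The 3 WT and 3 KO values did not overlap for 2 members, against 22.9% of all tested genes. Ctsl was the member higher in KO, as were 13.7% of all genes, and Ctsc the member lower in KO, as were 9.25%. These shares of members were near those of all genes.

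**Figure D1:**
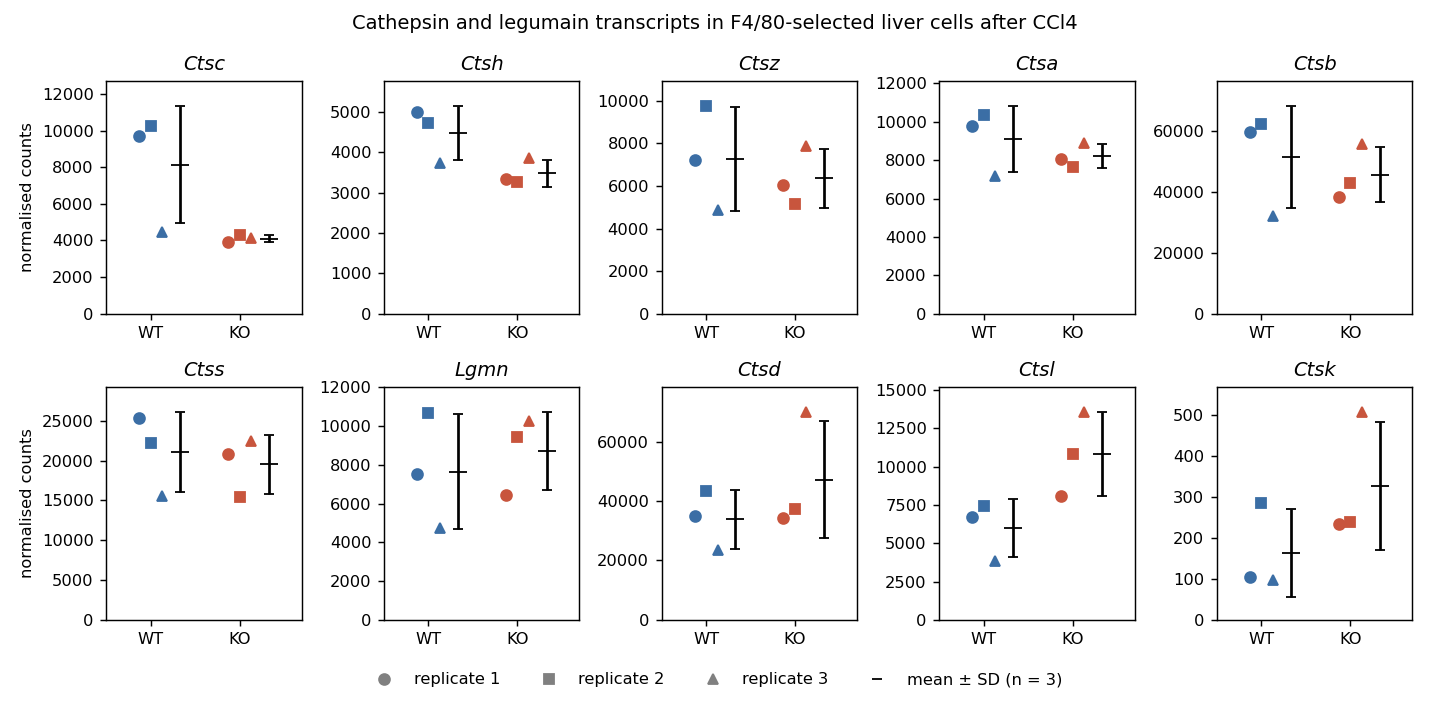
Normalised counts (linear axes from 0) of the 10 genes in each of 3 WT and 3 KO libraries, with mean ± SD; marker shape gives the replicate number. WT and KO values do not overlap for Ctsc, which is lower in KO, and Ctsl, which is higher.

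Cathepsin C, or dipeptidyl peptidase I, removes dipeptides from the ends of proteins and activates the serine proteases of neutrophils and cytotoxic lymphocytes. Ctsc (ENSMUSG00000030560, chromosome 7, 88278085 to 88310888, plus strand, GRCm38) stood at 9703, 10284 and 4472 normalised counts in WT replicates 1, 2 and 3, and at 3906, 4289 and 4127 in KO replicates 1, 2 and 3. WT replicates 1 and 2 were high, while WT replicate 3 lay just above the KO libraries. The mean was 8153 ± 3201 in WT and 4108 ± 192 in KO libraries, a log2 change of -0.90 (SE 0.31, 95% interval -1.59 to -0.21, limma adjusted p = 0.158). Without WT replicate 3 the log2 change was -1.28 and passed (limma adjusted p = 0.036), where 1.11% of all genes were called, and DESeq2 on the recovered reads gave -1.03 (adjusted p = 0.0149). Without WT replicate 1 or WT replicate 2 it was -0.72 and -0.68 and did not pass (limma adjusted p = 0.398 and 0.332). Over 17 alternatives the log2 change ran from -1.28 to -0.51, and the limma, edgeR and DESeq2 adjusted p from 0.0149 to 0.407. Its 5 annotated transcripts had log2 ratios of the group means, KO over WT, between -1.07 and -0.79. Transcripts of 1 gene shared reads (Ctsd-201 and Ctsd-202 both had a WT mean of 33879), so these ratios are not independent.

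Among markers of the cells known to use cathepsin C, neutrophil genes did not pass. The summed level of 8 neutrophil markers was 7812 to 10804 in WT and 6445 to 11476 in KO libraries, with no call and none at 0 in all libraries. Of the 8, 7 had a log2 change below 0 and 1 above 0, with a median of -0.27. Retnlg had the smallest p, at a log2 change of -1.17 with no overlap (limma adjusted p = 0.0653). The protease genes Elane, Prtn3, Gzmb and Gzma, whose products it activates, had log2 changes of -0.96, -0.31, -0.02 and 0.30 (limma adjusted p = 0.536, 0.871, 0.989 and 0.81). Elane was low, at 5.96 to 44.1 normalised counts. Of the 15 pan-macrophage markers, 12 had a log2 change below 0, as Ctsc had, and 3 above 0 (Cd14 at 0.62, Mertk at 0.21 and Cd68 at 0.06), with Lyz2 the 1 called. Their part in the level of Ctsc was not tested.

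Cathepsin L is an endopeptidase of lysosomes that degrades proteins broadly and is made by many cell types, hepatocytes and endothelium included. Ctsl (ENSMUSG00000021477, chromosome 13, 64363214 to 64370306, minus strand) was at 6687, 7433 and 3867 normalised counts in WT and 8073, 10821 and 13563 in KO replicates 1, 2 and 3. Every KO library lay above every WT library, with KO replicate 1 close to WT replicate 2. The mean was 5996 ± 1881 in WT and 10819 ± 2745 in KO libraries, and the log2 change of 0.87 did not pass (SE 0.30, 95% interval 0.20 to 1.55, limma adjusted p = 0.16). Its adjusted p over the 17 alternatives ran from 0.0088 to 0.41, and the log2 change from 0.59 to 1.26.

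Cathepsin K cleaves fibrillar collagen and is best known from bone-resorbing osteoclasts, and activated fibroblasts can also make it. Ctsk (ENSMUSG00000028111, chromosome 3, 95499256 to 95509362, plus strand) held 102 to 599 reads per library, far fewer than any other member. It stood at 105, 286 and 97.1 normalised counts in WT and at 234, 238 and 507 in KO replicates 1, 2 and 3. WT replicate 2 lay above KO replicates 1 and 2, so the groups overlapped. The log2 change of 1.09 was the highest of the 10 and did not pass (SE 0.46, 95% interval 0.06 to 2.11, limma adjusted p = 0.251). Without WT replicate 2 it was 1.58 (limma adjusted p = 0.0742), and without KO replicate 3 it was 0.72 (limma adjusted p = 0.56). Over the 17 alternatives its log2 change ran from 0.72 to 1.58 and its adjusted p from 0.0105 to 0.56.

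Ctsk lies 17423 bases before Ctss on the same strand. Cathepsin S remains active at neutral pH and trims the MHC class II invariant chain in antigen-presenting cells. Ctss (ENSMUSG00000038642, chromosome 3, 95526786 to 95556400) was at 25397, 22203 and 15541 normalised counts in WT and 20801, 15382 and 22417 in KO replicates 1, 2 and 3, so the groups overlapped. Its log2 change was -0.10 (SE 0.30, 95% interval -0.77 to 0.57, limma adjusted p = 0.909). The interval still allows a change in either direction. The invariant chain gene Cd74 had means of 47830 ± 2882 for WT and 49727 ± 11444 for KO, a log2 change of 0.03 (limma adjusted p = 0.977).

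Cathepsin B is an endopeptidase that also removes dipeptides from protein ends, and its values overlapped widely. Ctsb (ENSMUSG00000021939, chromosome 14, 63122462 to 63145923, plus strand) was at 59683, 62306 and 32083 normalised counts in WT and 38215, 42736 and 55744 in KO replicates 1, 2 and 3. WT replicate 3 was the lowest library and KO replicate 3 lay near the higher WT libraries. The log2 change was -0.13 (SE 0.40, 95% interval -1.04 to 0.78, limma adjusted p = 0.91).

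Cathepsin D, the aspartic endopeptidase, was led by a single library. Ctsd (ENSMUSG00000007891, chromosome 7, 142375911 to 142388038, minus strand) was at 34806, 43290 and 23541 normalised counts in WT and 34255, 37299 and 69906 in KO replicates 1, 2 and 3. KO replicate 3 stood above all others, while KO replicates 1 and 2 lay within the WT range. The log2 change was 0.44 (SE 0.41, 95% interval -0.48 to 1.36, limma adjusted p = 0.632). Without KO replicate 3 it was 0.12 (limma adjusted p = 0.927), and over the 17 alternatives it ran from 0.12 to 0.83, with none called. The kept transcript shares 808 bases, 38% of its length, with the gene model Gm49369 on the same strand, which stood at 14020 ± 4058 in WT and 19330 ± 9116 in KO libraries, so each count may hold reads of the other.

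Legumain activates several cathepsins by cleavage and takes part in antigen processing. Lgmn (ENSMUSG00000021190, chromosome 12, 102394098 to 102439813, minus strand) was at 7513, 10685 and 4730 normalised counts in WT and 6458, 9416 and 10274 in KO replicates 1, 2 and 3. The groups overlapped, and the log2 change was 0.24 (SE 0.32, 95% interval -0.48 to 0.96, limma adjusted p = 0.758).

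The remaining carboxy- and aminopeptidases were slightly lower on average in KO libraries, with overlapping groups. Cathepsin H is an aminopeptidase, and Ctsh (ENSMUSG00000032359, chromosome 9, 90054506 to 90076087) was at 4989, 4731 and 3726 in WT and 3330, 3253 and 3851 in KO replicates 1, 2 and 3. Only KO replicate 3 reached into the WT range, and the log2 change was -0.36 (SE 0.19, 95% interval -0.78 to 0.06, limma adjusted p = 0.366). The transcript kept for Ctsh is annotated as a retained intron, and the coding transcript Ctsh-201 gave nearly the same means of 4392 ± 707 and 3450 ± 325. Both transcripts share reads, so this was not a separate measurement.

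Cathepsin Z, also called cathepsin X, is a carboxypeptidase. Ctsz (ENSMUSG00000016256, chromosome 2, 174427493 to 174439039) was at 7213, 9762 and 4874 in WT and 6040, 5150 and 7876 in KO replicates 1, 2 and 3. It had a mean of 7283 ± 2445 in WT and 6355 ± 1391 in KO libraries, a log2 change of -0.16 (95% interval -0.80 to 0.48, limma adjusted p = 0.827). Cathepsin A trims protein ends and shields the lysosomal neuraminidase and beta-galactosidase from breakdown. Ctsa (ENSMUSG00000017760, chromosome 2, 164832901 to 164841032) was at 9807, 10375 and 7169 in WT and 8067, 7666 and 8882 in KO replicates 1, 2 and 3. It had means of 9117 ± 1711 and 8205 ± 620, a log2 change of -0.14 (95% interval -0.63 to 0.36, limma adjusted p = 0.806). Its partners Neu1 and Glb1 had log2 changes of 0.12 and 0.57 (limma adjusted p = 0.744 and 0.234). Ctsa and Ctsb overlap Pltp and Fdft1 on the opposite strand over 13.6% and 16.3% of their length, and were counted with a strand setting not given in the sources used here. Pltp stood at 7988 ± 1657 in WT and 7676 ± 2195 in KO libraries, and Fdft1 at 266 ± 92.6 and 230 ± 64.4. The 16 annotated transcripts of Ctsa had log2 ratios of the group means from -0.38 to 0.17, the 11 of Ctsh from -0.51 to -0.12, and the 3 of Ctsd from 0.41 to 0.48. Because transcripts of a gene share reads, these ratios are not independent.

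**Figure D2:**
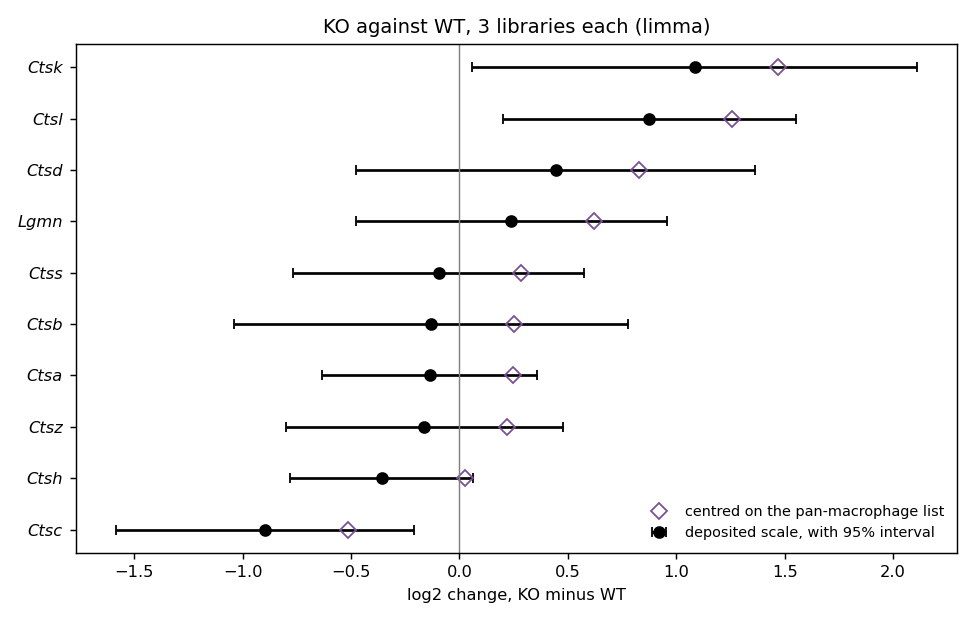
Log2 change of each gene, KO minus WT, from limma with 3 libraries per group. Filled circles with 95% intervals are on the deposited scale, and open diamonds are after centring on pan-macrophage markers, which moves every gene by 0.38; on the deposited scale the intervals of Ctsc, Ctsl and Ctsk do not reach 0 before adjustment for multiple tests.

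The members varied together between libraries of one genotype. All 10 were lowest among the WT libraries in WT replicate 3, 8 were highest there in WT replicate 2, and 9 were highest among the KO libraries in KO replicate 3. The summed level of the 10 was 165902, 181355 and 100100 normalised counts in WT replicates 1, 2 and 3 and 129380, 136250 and 197146 in the KO replicates. The pan-macrophage markers followed the same order in WT: relative to the WT mean, their mean log2 level was 0.17, 0.26 and -0.43 in WT and -0.81, -0.76 and -0.56 in KO replicates 1, 2 and 3. By this mean, which includes Lyz2, the KO libraries had the same order in both. By the same mean all 3 lay below the WT libraries in the markers, and not in the sum of the members. The median of the 15 markers gave another order, with KO replicate 2 lowest at a log2 level of 12.01. By that median KO replicate 3, at 12.41, lay above WT replicate 3, at 12.12. WT replicate 3 was also the lowest WT library for the Kupffer cell, hepatocyte, endothelial, stellate cell and erythroid lists, at -0.67, -0.36, -0.39, -0.47 and -2.38. The neutrophil and dendritic cell lists were lowest there too, at -0.09 and -0.15. In contrast it was the highest WT library for the T and NK cell, B cell and cholangiocyte lists, at 0.75, 0.61 and 0.59. For the monocyte list it lay between the other WT libraries, at 0.06.

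**Figure D3:**
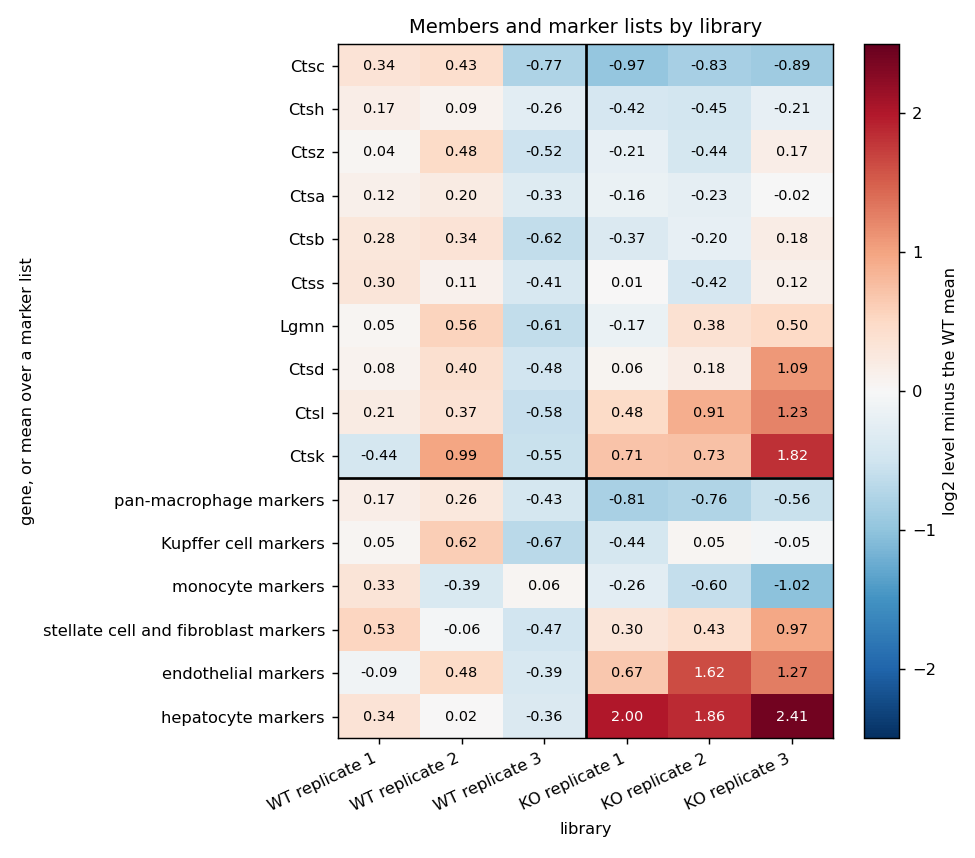
Log2 level minus the WT mean in each library, for the 10 genes (upper rows) and as the mean over each marker list (lower rows). WT replicate 3 is the lowest WT library for every one of the 10 genes and for the pan-macrophage markers (-0.43), and hepatocyte markers are 1.86 to 2.41 above the WT mean in the KO libraries.

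As an alternative, the log2 values of each library were centred on the median of the 15 pan-macrophage markers, which expresses each gene relative to these markers. Whether they measure the amount of macrophage RNA was not tested. The centring moved the log2 change of every gene by 0.38, and the median over all tested genes from 0.05 to 0.43. With Lyz2 left out of the markers, every gene moved by 0.19. The SD between WT libraries became smaller for all 10 members, with a median over the members of 0.504 before and 0.192 after, and the SD between KO libraries for 9 of 10. After centring, 9 of 10 log2 changes were above 0, and those of Ctsa, Ctsb, Ctsh, Ctss and Ctsz had changed sign. KO values lay above all WT values for 5 members, Ctsa, Ctsd, Ctsk, Ctsl and Lgmn, against 23.5% of all tested genes.

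On this scale 2 members passed, both higher in KO, where 9.84% of all genes were called and 9.62% were called higher. Ctsl had a centred log2 change of 1.26 (limma adjusted p = 0.0088) and Ctsk of 1.47 (limma adjusted p = 0.0105). Relative to the median of all genes, Ctsl stood 0.83 and Ctsk 1.04 higher on the log2 scale. The centring moves every gene alike, so it cannot change these distances. These calls depended on the centre and on single libraries. With Lyz2 left out of the 15 markers, Ctsk had 1.27 (limma adjusted p = 0.0433) and Ctsl 1.06 (limma adjusted p = 0.0514), with 6.58% of all genes called. The Ctsl call was also lost without WT replicate 1 or KO replicate 2, at limma adjusted p of 0.0557 and 0.13. The Ctsk call was lost without WT replicate 1 or KO replicate 3, at 0.171 and 0.13. Ctsc, at -0.51, did not pass after centring (limma adjusted p = 0.407), and its groups then overlapped.

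The make-up of the group within a library does not depend on any scaling between libraries. It does depend on the transcript length used for each gene. As a share of the summed level per kilobase of the 10 members, Ctsl took 4.97%, 5.05% and 4.65% in WT and 7.29%, 9.66% and 8.14% in KO replicates 1, 2 and 3. Its WT shares were nearly equal and all KO shares were higher. Ctsc took 5.70%, 5.52% and 4.25% in WT and 2.79%, 3.03% and 1.96% in KO replicates, all lower than in WT. Ctsd took 25.8% ± 1.69 of the WT and 32.8% ± 5.39 of the KO sum, with KO replicate 3 the highest at 38.9%. Ctsb took 17.3% ± 1.21 and 14.7% ± 1.02, Ctsh 2.73% ± 0.458 and 1.97% ± 0.269, and Ctsk 0.169% ± 0.077 and 0.316% ± 0.0694. The WT and KO shares did not overlap for these 6 members. Shares were formed among the 10 members alone, so this count has no counterpart over all genes and is not read as a result. On the deposited scale the groups did not overlap for 2 members and for 22.9% of all tested genes. They overlapped for Ctss, at 25.5% ± 3.10 and 22.3% ± 4.36, and for Ctsa, Ctsz and Lgmn. The shares sum to the whole, so they do not move independently, and no test was made of them.

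The pair of Ctsl and Ctsc, chosen after their values were seen, had a log2 ratio within a library of -0.54, -0.47 and -0.21 in WT and 1.05, 1.33 and 1.72 in KO replicates 1, 2 and 3. All 3 KO libraries lay above all 3 WT libraries. The mean ratio was 3.41-fold higher in KO. The log2 ratio of Ctsd to Ctsb went from -0.58 ± 0.17 in WT to -0.01 ± 0.29 in KO libraries, and that of Ctsk to Ctss from -7.17 ± 0.83 to -5.99 ± 0.50. Length enters such a ratio as a constant. The ratios show unequal differences between genes, not which of the pair differed.

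**Figure D4:**
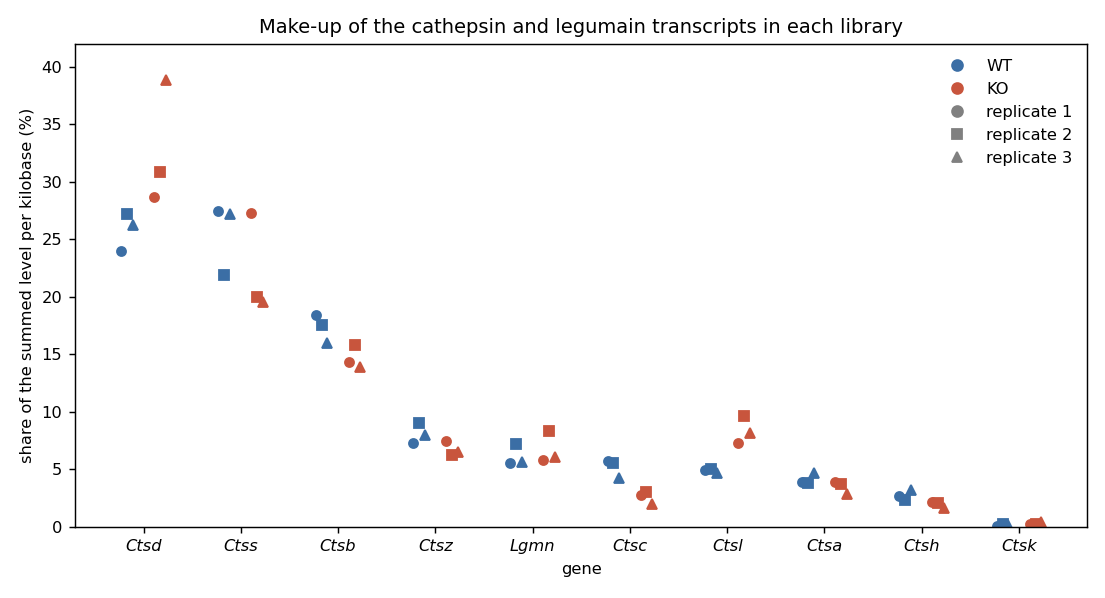
Share of each gene in the summed level per kilobase of the 10 genes (percent, linear axis from 0), 1 point per library, marker shape giving the replicate number. Ctsl lies at 4.65% to 5.05% in WT and 7.29% to 9.66% in KO libraries, and Ctsc at 4.25% to 5.70% and 1.96% to 3.03%.

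Most markers of hepatocytes, endothelium and stellate cells had log2 changes above 0, as Ctsl, Ctsk, Ctsd and Lgmn had. The counts were 10 of 10, 10 of 10 and 8 of 10, the exceptions being the stellate cell genes Lrat and Reln at -0.46 and -0.53. All 5 cholangiocyte and all 5 erythroid markers were above 0 too, as were 8468 of the 15619 genes tested. The median log2 change was 2.24 for the hepatocyte list, 1.37 for the endothelial list and 0.66 for the stellate cell list. Relative to the WT mean the stellate cell list stood highest in KO replicate 3, at 0.97, where Ctsk and Ctsd were also highest. This was not particular to them, since 9 of the 10 members were highest among the KO libraries there. So were the hepatocyte, cholangiocyte and pan-macrophage lists, at 2.41, 1.58 and -0.56, while the endothelial list was highest in KO replicate 2, at 1.62. The Kupffer cell list, of resident liver macrophages, had a median of -0.04, no call and no marker at 0. Its summed level was 36133 to 113620 in WT and 40101 to 53942 in KO libraries. This median hides opposite changes, with 4 markers above 0 and 5 below. Clec4f had means of 3190 ± 72.9 for WT and 7182 ± 2322 for KO with no overlap (limma adjusted p = 0.0537). Marco had means of 23112 ± 15511 for WT and 6252 ± 680 for KO with no overlap (limma adjusted p = 0.102). After centring on the pan-macrophage markers both passed, Clec4f higher and Marco lower in KO (limma adjusted p = 0.0012 and 0.0132). The monocyte list had a median of -0.45, with 1 of 7 markers, Cx3cr1, lower and none at 0, at 30318 to 47129 and 17199 to 37968. The part of these cells in the levels of the members was not tested.

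Other genes of the pathway were read from lists chosen by function. Of 14 other cathepsin genes, 5 were tested and none passed, with a median log2 change of 0.31. No transcript was matched for 8 of the 14, placental cathepsin genes such as Ctsm, Ctsq and Ctsr, and these were not analysed here. Ctso had means of 908 ± 51.7 in WT and 1141 ± 73.1 in KO libraries with no overlap (limma adjusted p = 0.324). Ctsf, the lymphocyte gene Ctsw and Ctse had log2 changes of 0.59, 0.31 and -0.09.

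Of 17 listed genes for cystatins, stefins and plasma proteins with cystatin domains, 9 were tested and none passed, with a median log2 change of 1.21. Those with the smallest p were the plasma proteins Kng2, Ahsg, Hrg and Fetub, products of hepatocytes with cystatin domains, at log2 changes of 1.72, 1.41, 1.66 and 1.58 (limma adjusted p of 0.0828 to 0.179). These genes passed after centring on the pan-macrophage markers (limma adjusted p of 1.4e-05 to 0.00015), where 9.62% of all genes were called higher. The hepatocyte list, at a median of 2.24, was higher in the same libraries, and its part was not tested. The intracellular and secreted inhibitors that macrophages make stood closer to 0. Cst3, which encodes cystatin C, had means of 9318 ± 1221 for WT and 8742 ± 1085 for KO (log2 change -0.09, limma adjusted p = 0.874), and Cstb, which encodes stefin B, had a log2 change of 0.25 (limma adjusted p = 0.708).

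None of 22 genes for partners, sorting and acidification of lysosomes passed, and 13 were above 0, with a median of 0.06. Those of smallest p were Glb1 and Sort1, and the proton pump subunit genes Atp6v0a1 and Atp6v1b2 at log2 changes of 0.47 and -0.36. Psap, which encodes the saposin precursor, had means of 55912 ± 10151 for WT and 52724 ± 12557 for KO. The sorting receptor genes Sort1, M6pr and Igf2r had log2 changes of -0.47, -0.42 and 0.06, and Lamp1, a protein of the lysosomal membrane, 0.06. None of 8 genes in a list of other lysosomal peptidases passed. This list also held Blmh, a cytosolic peptidase gene, and Pla2g15, which encodes a lysosomal phospholipase. Among its members the aspartic peptidase gene Napsa had the smallest p, at a log2 change of -0.91 (limma adjusted p = 0.185). Dpp7, Tpp1 and Prcp followed at 0.56, 0.32 and -0.21.

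Among 10 transcription factors of lysosomal and macrophage genes none passed, and 8 were below 0. Tfeb and Tfe3, which bind the letters marked above, had log2 changes of -0.09 and -0.07 (limma adjusted p = 0.909 and 0.878). Spi1, which encodes PU.1, had means of 4013 ± 480 for WT and 2754 ± 423 for KO with no overlap (log2 change -0.55, limma adjusted p = 0.164). Mitf, Usf1 and Usf2, whose products also bind these letters, stood at 0.35, -0.19 and 0.13 on the log2 scale. Of 17 substrates and zymogens 1 passed. Tlr7, an endosomal receptor that these peptidases cleave, fell from 1444 ± 268 to 638 ± 76.0 (log2 change -1.17, limma adjusted p = 0.0219), a call lost after centring on the pan-macrophage markers (log2 change -0.79, limma adjusted p = 0.171). Tlr9, cleaved likewise, had a log2 change of -0.70 (limma adjusted p = 0.27). The matrix protein gene Fn1 had means of 47973 ± 14687 for WT and 117360 ± 67081 for KO (log2 change 1.18, limma adjusted p = 0.272), and Ifi30, which encodes a thiol reductase of antigen processing, had -0.53 (limma adjusted p = 0.28). After the centring Fn1 passed (limma adjusted p = 0.0061) and Ifi30 did not (limma adjusted p = 0.828).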

How the data were processed

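RNA was measured in 6 libraries, grouped by the genotype in the labels. Tools named by the submitters' processing notes, with no role given, were DESeq 1.8.3, HTSeq 0.5.3, SAMtools, STAR 2.4.0k and bcl2fastq 2.17, with GRCm38.p4 as the build. Per the file headers the deposited values are normalised counts per transcript, a signal that the authors made by dividing reads by 1 factor per library: divided by the value of 1 read, 100% of the values came out whole within 0.001, and these recovered reads were used in count tests. Of 79382 transcripts, 78332 matched GENCODE M21 (GRCm38), giving 23394 genes. filterByExpr of edgeR left 15619. The test was limma 3.58.1 with a trended prior on log2(value + 1), which understates changes of low genes, with genotype as the only term and two-sided p-values. edgeR 4.0.16 and DESeq2 1.42.0 were run on the recovered reads, in R 4.3.3. Promoter sequences are from RefSeq.

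The members and the gene lists were chosen with earlier results of these data known. Named were all members, from each pathway list every gene called or up to 4 of smallest p, up to 3 per marker list, and Adgre1. Other genes named for a known link to a member (such as Cd74, Neu1, Elane, Cst3, Psap, M6pr, Tfeb) were chosen after their values were seen. The scripts were tested on simulated data. Alternatives were other pseudocounts, scalings, filters and tools, summed transcripts, a fit with the replicate number as a block, and fits without 1 library. Depth sets counting error only, and 3 libraries per group limit precision.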

Additional observations from a re-analysis of the deposited data

How the results depend on the processing

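Over 17 alternatives, Ctsc, Ctsd, Ctsk and Ctsl kept the sign of their log2 change. The other members changed sign in 1 to 3 of them. With centring on the pan-macrophage markers Ctsa was at 0.25, Ctsb 0.25, Ctsh 0.0235, Ctss 0.29 and Ctsz 0.22. With Lyz2 left out of that centre, a choice made after seeing the data, Ctsa was at 0.0495, Ctsb 0.0558, Ctss 0.0895 and Ctsz 0.0237. Leaving out each library gave Ctsb -0.44 to 0.0399, above 0 without WT replicate 1 or 2. It gave Ctss -0.30 to 0.0668, above 0 without WT replicate 1 or KO replicate 2, Ctsz -0.42 to 0.0776, above 0 without WT replicate 2, and Lgmn -0.0677 to 0.52, below 0 without WT replicate 3. The cause was not tested.

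The number of members called, 0, became 2 with that centring, 1 with DESeq2 and 1 with the centre less Lyz2. It was 0 to 1 when each library was left out, with 1 (Ctsc) without WT replicate 3. With centring and each library left out, also added after seeing the data, it was 0 to 2. Over all genes 381 were called, 326 higher and 55 lower in KO. The count was 1537 with the centring, of which 1503 were higher, 1028 with the centre less Lyz2, 1409 with DESeq2, of which 959 were higher, and 240 with transcripts summed. It was 8 to 810 when each library was left out, with 8 without KO replicate 3, and 641 to 3128 with the centring too, with 844, 1040, 1366 and 1094 without WT replicate 1, WT replicate 2, KO replicate 1 and KO replicate 3.

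Replicate numbers did not pair the libraries: deviations from the group means correlated at -0.01, 0.09 and -0.14 for numbers 1, 2 and 3, and not every library correlated best with its own number. A replicate block called 0 members and 539 genes, and 0 members and 762 genes with the centring. Ctsk had the fewest reads, 102 in its lowest library.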
